A study of Mus musculus with 37 samples.

Results

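The genes described here are 34 that microglia, the resident macrophages of the brain, express strongly, as they appear in messenger RNA pulled down with the tagged ribosomes of midbrain neurons. They were taken as a list of gene symbols, and each matched exactly 1 of the 57180 gene rows in both count tables, so all 34 were measured. The study profiled dopamine neurons with DAT;NuTRAP mice and GABA neurons with VGAT;NuTRAP mice. In the first cross Cre is expressed from the dopamine transporter locus (DAT-IRES-cre), in the second from the vesicular GABA transporter locus (Vgat-ires-cre), and in both it removes a floxed stop so that the ribosomal protein L10a fused to EGFP is made from Rosa26. All 37 mice carried a Cre allele and the NuTRAP transgene, each gave 1 library of the GFP-bound fraction of ventral midbrain, and neither driver is directed at microglia. DAT;NuTRAP mice were 9 old (21 months; 4 females and 5 males) and 10 young (8, 9 or 10.5 months; 5 females and 5 males). VGAT;NuTRAP mice were 8 old (7 of 21 months and 1 of 24 months; 5 females and 3 males) and 10 young (7, 8.5 or 9 months; 6 females and 4 males). The labels also put each library in a first or a second batch: in DAT;NuTRAP 5 old and 6 young libraries were of the second batch against 4 old and 4 young of the first, and in VGAT;NuTRAP 6 old and 6 young against 2 old and 4 young.

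Microglia arise from yolk sac progenitors and are kept alive in the adult brain by signalling through the receptor CSF1R, whose ligands are made by neurons and glia. In the healthy brain they carry a homeostatic set of surface receptors that sense nucleotides, chemokines and lipids, and they take up debris through receptors that signal by way of the adaptors TYROBP and FCER1G. Lysosomal and antigen-handling genes are known to be raised in microglia of the aged brain. Most of these genes are used as markers of microglia or of macrophages in general, not of neurons. In pulldowns of this kind fewer cells of a type, less RNA per cell and less untagged RNA carried through the pulldown cannot be told apart.

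Levels are given as CPM, the counts of a gene relative to the total count of its library, with totals corrected by TMM factors. Libraries held 13841253 to 38235015 counts, with 14323 to 18170 genes detected in the 11 second-batch DAT;NuTRAP libraries, 19085 to 21051 in the 8 first-batch DAT;NuTRAP libraries and 18485 to 21803 in VGAT;NuTRAP libraries. The neuron labels held: Slc6a3, the dopamine transporter, lay between 2617 and 4246 CPM in DAT;NuTRAP libraries against 247 to 1229 CPM in VGAT;NuTRAP libraries, and Gad1, which makes GABA, between 54.0 and 252 CPM against 1389 to 2268 CPM. Markers of monocytes and neutrophils summed to at most 0.737 CPM in any library, and those of lymphocytes to at most 1.74 CPM.

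The 34 genes together took between 0.00239% and 0.0219% of a library's counts. Their summed level ranged from 43.6 to 155 CPM over the 19 DAT;NuTRAP libraries and from 23.9 to 218 CPM over the 18 VGAT;NuTRAP libraries. No member was at 0 counts in every library of a cross, yet just 8 members in DAT;NuTRAP and 15 in VGAT;NuTRAP had a count in every library, and 6 and 7 members reached 10 counts in every library. Levels of different genes were compared per 1000 exonic bases, counted over all annotated transcripts of a gene together, which is only a rough guide to transcript length. By mean, Laptm5 had the highest level in DAT;NuTRAP (3.14 ± 1.98 CPM per 1000 bases, SD, n = 19), followed by Tgfbr1 (1.94 ± 0.67), Ctss (1.70 ± 1.13), Tyrobp (1.66 ± 1.39) and Cx3cr1 (1.60 ± 1.06). In VGAT;NuTRAP the order by mean began with Ctss (2.22 ± 2.17 CPM per 1000 bases, SD, n = 18), Tyrobp (1.67 ± 1.94), Tgfbr1 (1.56 ± 0.39), Mpeg1 (1.40 ± 1.30) and Csf1r (1.20 ± 1.16). Within each order these neighbours differed by less than the larger of their SDs between libraries. By median the VGAT;NuTRAP order began instead with Tgfbr1 (1.50 CPM per 1000 bases), Ctss (1.27), Tyrobp (0.846), Laptm5 (0.827) and Mpeg1 (0.800). Ptprc, which encodes the leukocyte phosphatase CD45, was lowest by mean in both crosses. By median it was lowest in VGAT;NuTRAP and second lowest in DAT;NuTRAP. Its 18764 exonic bases were the most of any member, which lowers its level per 1000 bases.

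**Figure D1:**
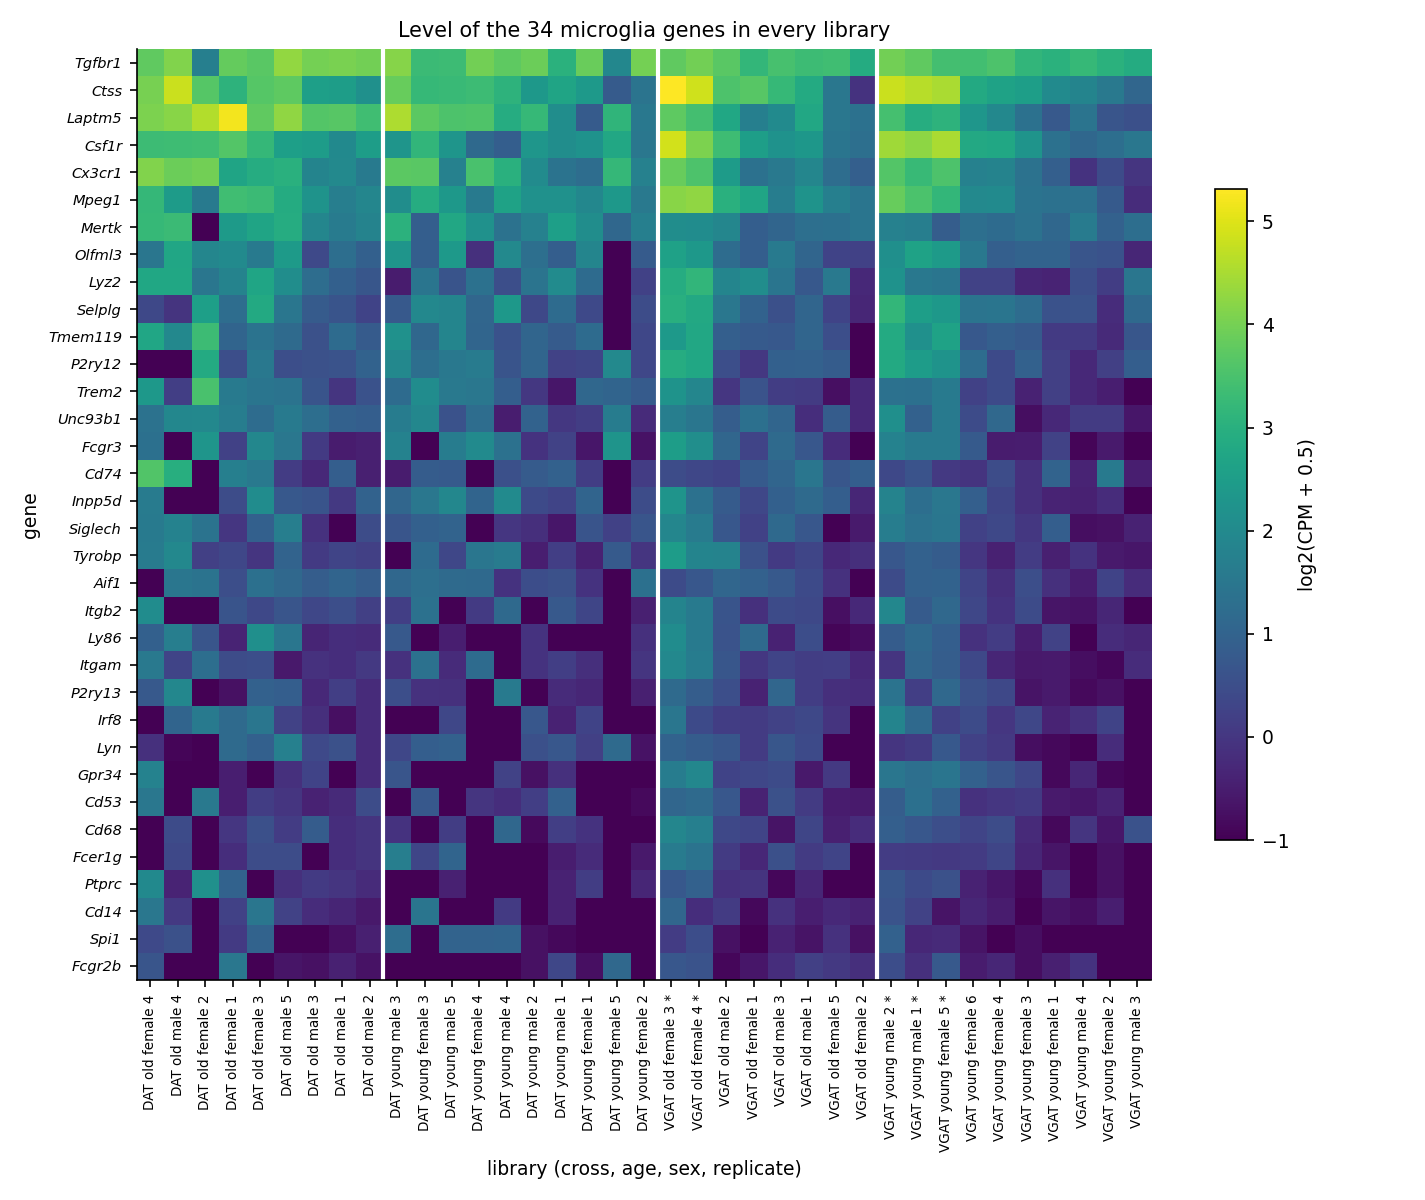
Level of each of the 34 microglia genes (rows, ordered by mean CPM) in each of the 37 libraries (columns), as log2(CPM + 0.5) by colour. White lines divide DAT old, DAT young, VGAT old and VGAT young libraries, which are sorted within each block by summed level. The 5 columns marked with an asterisk are the VGAT;NuTRAP libraries that summed to 137 to 218 CPM, brighter over most rows than the other 13.

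A group of 5 VGAT;NuTRAP libraries stood apart. The members summed to 218 CPM in old female replicate 3, 180 CPM in old female replicate 4, 171 CPM in young male replicate 2, 138 CPM in young male replicate 1 and 137 CPM in young female replicate 5, while the other 13 libraries lay between 23.9 and 86.2 CPM. Both ages and both sexes were among the 5, and 4 of them were of the second batch and 1 of the first. Since these libraries were picked by the members' own summed level, what follows on them is a description and was not tested.

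The high level was shared by most members. The same 5 libraries were the 5 highest for 17 of the 34 members, and for 28 members at least 4 of the 5 were among the 5 highest. Among the 15425 genes with at least 10 counts in 9 or more VGAT;NuTRAP libraries, 26 (0.169%) had these same 5 libraries as their 5 highest, and 16 of the 26 were members. Of the other 10 genes, 7 were on a list of further microglia genes, among them C1qa and C1qb, which encode chains of complement C1q, Cd33, Cyth4, Slc2a5 and Vsir. The other 3, Fcrl2, Il6ra and Pld4, were on none of the lists, and the genes named here were chosen after their values were seen. Cd74 was the exception at the other end, since none of the 5 libraries was among its 5 highest, and its highest VGAT;NuTRAP value was 2.55 CPM in young female replicate 2. Fcer1g and Aif1 had 2 of the 5 among their 5 highest, and Cd14, Lyz2 and Lyn had 3.

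Of the 8 homeostatic surface and secreted members, 7 took part in full. Cx3cr1, the fractalkine receptor, lay between 9.06 and 13.9 CPM in the 5 libraries and between 0.455 and 4.99 CPM in the other 13. P2ry12, the purine receptor that steers microglial processes, lay between 4.25 and 7.00 CPM against 0 to 1.85 CPM, and Tmem119, a surface protein used to tell microglia from other macrophages, between 4.01 and 6.78 CPM against 0 to 1.57 CPM. For each of these 3 genes the groups did not overlap. The same held for Selplg, a ligand of P-selectin (4.66 to 8.52 CPM against 0.297 to 2.35 CPM), Olfml3, a secreted protein (3.93 to 5.67 CPM against 0.295 to 2.54 CPM), the lectin Siglech (2.08 to 3.22 CPM against 0 to 1.72 CPM) and Gpr34 (1.98 to 3.29 CPM against 0 to 1.45 CPM). The other gene, P2ry13, a purine receptor gene that lies next to P2ry12 on chromosome 3, had 4 of the 5 libraries among its highest. Both P2ry12 and P2ry13 lie inside Med12l on the opposite strand, and Gpr34 inside Cask on the opposite strand. The libraries were strand-marked, but the sources used here do not say whether counting used the strand, so reads of these partners may be mixed.

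Receptors for growth factors and for uptake of dying cells varied less alike. Csf1r, the survival receptor, lay between 16.2 and 28.8 CPM in the 5 libraries and between 1.67 and 9.65 CPM in the other 13. Tgfbr1, a type I receptor for TGF-beta that neurons and glia also use, lay between 6.82 and 15.2 CPM over all 18 libraries, and its lowest value in the 5 libraries (10.3 CPM) was below the highest in the other 13 (12.4 CPM). Mertk, which binds GAS6 and PROS1 on apoptotic cells, was between 1.33 and 3.78 CPM over the 18 libraries. Among lysosomal, Toll-like receptor and antigen members, Ctss, which encodes the protease cathepsin S, lay between 22.2 and 39.3 CPM against 0.445 to 12.2 CPM, Laptm5 between 7.13 and 12.9 CPM against 0.959 to 6.37 CPM, and Mpeg1, which encodes a pore-forming protein of phagosomes, between 8.53 and 18.6 CPM against 0.369 to 7.51 CPM.

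Adhesion and leukocyte surface members, and Aif1, which was only grouped with them, were low. Itgb2, the integrin chain that pairs with the product of Itgam, lay between 1.25 and 3.27 CPM in the 5 libraries against 0 to 1.07 CPM, and the tetraspanin gene Cd53 between 1.32 and 2.03 CPM against 0 to 1.14 CPM, both without overlap. Itgam ranged up to 2.42 CPM in DAT;NuTRAP and 3.38 CPM in VGAT;NuTRAP, Ptprc up to 4.01 and 1.46 CPM, and Aif1, which encodes the microglial marker IBA1, up to 2.30 and 1.64 CPM. Of the remaining members, highest values in DAT;NuTRAP and VGAT;NuTRAP were 2.72 and 2.56 CPM for Fcer1g, 2.32 and 1.20 CPM for Fcgr2b, 3.69 and 4.34 CPM for Inpp5d, 2.88 and 1.48 CPM for Lyn, 3.37 and 3.93 CPM for Unc93b1, 1.67 and 3.22 CPM for Cd68, 3.93 and 3.71 CPM for Ly86, and 2.32 and 1.61 CPM for Cd14. All of these but Unc93b1 were at 0 in at least 1 DAT;NuTRAP library.

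Among markers of other cells, over 15 astrocyte, 12 oligodendrocyte, 7 oligodendrocyte precursor and 14 endothelial and mural markers, 0 genes had these 5 libraries as their 5 highest. Astrocyte markers summed to between 993 and 1216 CPM in the 5 libraries and to between 922 and 1477 CPM in the other 13, and oligodendrocyte markers to between 285 and 529 CPM against 274 to 1027 CPM. The 10 markers of border-associated macrophages summed to between 4.69 and 5.68 CPM in the 5 libraries. In the other 13 they were at 4.23 CPM or less, except for 5.67 and 7.09 CPM in old male replicates 3 and 2, so that these macrophages were among the higher values in the 5 libraries, and their part in the members' level was not tested. Markers of monocytes and neutrophils were at 0 in all 5. GABA neuron labels summed to between 3271 and 3973 CPM against 3149 to 4311 CPM. Depth was 19065284 to 35054329 counts in the 5 libraries and 19261891 to 32691185 in the other 13.

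**Figure D2:**
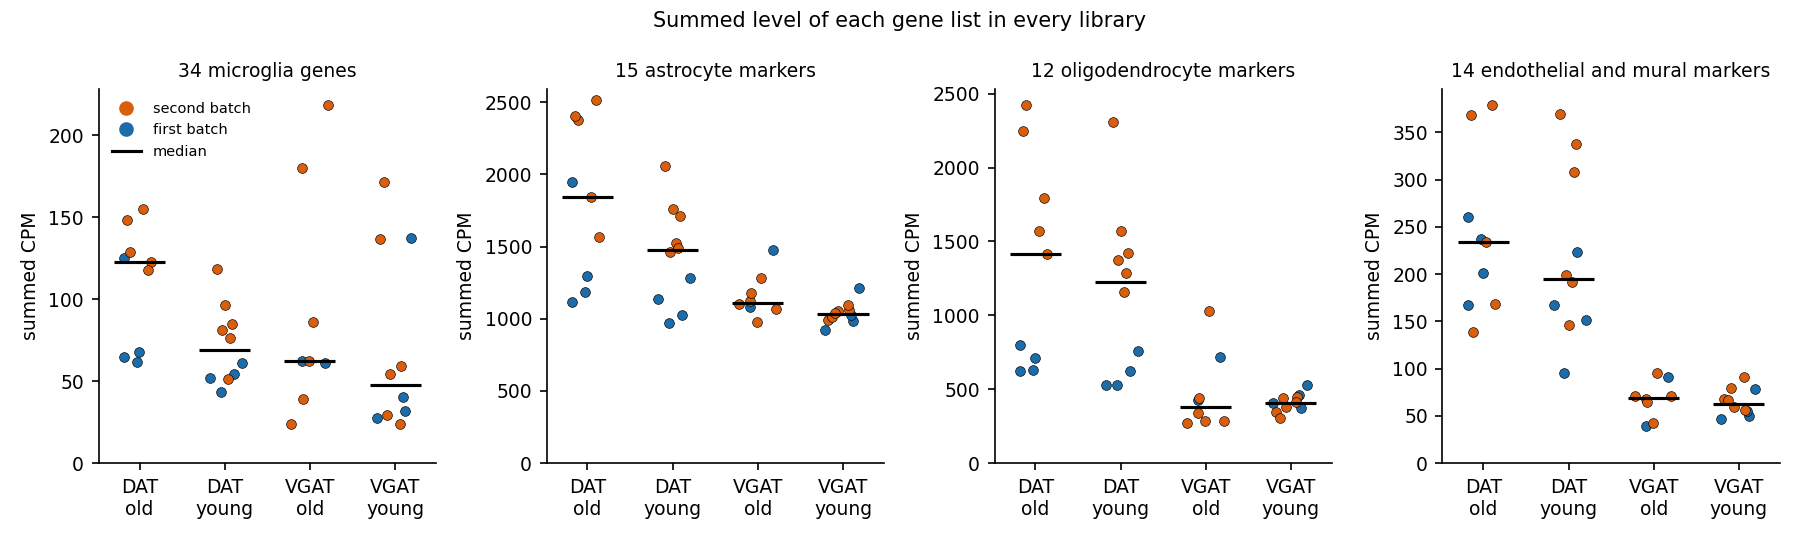
Summed CPM per library of the 34 microglia genes and of the astrocyte, oligodendrocyte and endothelial and mural marker lists, by cross and age. Points are libraries coloured by batch and bars are medians. The 5 highest VGAT;NuTRAP points of the first panel, 137 to 218 CPM, are not matched in the other panels, where the highest values, up to 2512 CPM for astrocyte, 2424 CPM for oligodendrocyte and 379 CPM for endothelial and mural markers, are all of DAT;NuTRAP libraries.

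A further 7 members belong to signalling through ITAM adaptors and Fc receptors. TREM2 binds lipids and apoptotic cells and signals through TYROBP, while FCER1G is the common gamma chain of Fc receptors. The DNA just before Trem2 and Fcer1g is shown because both genes belong to this group and because the transcription factor PU.1, encoded by the member Spi1, is known to bind purine-rich sites with the core GAGGAA in promoters of macrophage genes. Each line gives the 250 bases before the start of the gene's canonical transcript on its own strand, read from GRCm39 with GENCODE vM39, at chr17:48653179-48653428 (plus strand) for Trem2 and chr1:171062220-171062469 (minus strand) for Fcer1g. Capitals mark GAGGAA or its reverse complement.
Trem2: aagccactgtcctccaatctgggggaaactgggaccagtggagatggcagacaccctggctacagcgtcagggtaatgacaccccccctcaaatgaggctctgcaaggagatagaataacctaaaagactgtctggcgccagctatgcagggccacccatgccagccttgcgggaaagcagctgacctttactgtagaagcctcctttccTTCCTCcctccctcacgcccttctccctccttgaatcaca
Fcer1g: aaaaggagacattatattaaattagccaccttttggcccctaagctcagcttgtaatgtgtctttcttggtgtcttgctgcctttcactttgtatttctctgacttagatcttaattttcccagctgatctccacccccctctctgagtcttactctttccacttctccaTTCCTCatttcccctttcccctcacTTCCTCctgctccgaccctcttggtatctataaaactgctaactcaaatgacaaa
Read on both strands, GAGGAA was in 12 of the 34 member promoters (35.3%) and in 4990 of 21770 promoters of protein-coding genes (22.9%). The longer PU.1 motif GAGGAAGT, which holds the core, was in 2 members (5.88%), Fcer1g and Inpp5d, and in 453 of all promoters (2.08%). CCGGAAGT, a site of other ETS factors, was in 0 members and in 2.64% of all promoters. These matches are letters in a window of fixed length, and the difference between the shares was not tested.

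At the level of RNA, Trem2 lay between 2.03 and 4.24 CPM in the 5 VGAT;NuTRAP libraries and between 0 and 1.03 CPM in the other 13, with no overlap. Tyrobp was less tied to them, at 1.15 CPM or more in the 5 libraries and up to 3.03 CPM in the other 13. Fcgr3, a low-affinity receptor for IgG, lay between 2.47 and 5.22 CPM against 0 to 1.76 CPM, again without overlap. Fcer1g, Fcgr2b and Fcgr3 lie near each other on chromosome 1. The transcription factor members were close to the detection limit: Spi1 had a median of 0.237 CPM in old and 0.0825 CPM in young DAT;NuTRAP libraries, and Irf8, an interferon regulatory factor that microglia need, was at 0 counts in 1 of 9 old and 6 of 10 young DAT;NuTRAP libraries. Spi1 passed the count filter in neither cross.

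Whether the members changed with age was asked first in dopamine neurons. In DAT;NuTRAP 23 of the 34 genes passed the count filter, and 0 of them were called in old against young mice at an adjusted p below 0.05 (edgeR quasi-likelihood test, batch as a term). Over all 14889 genes tested, 1 was called higher (0.00672%) and 0 lower. DESeq2 and limma-voom also called 0 members. Without adjustment, 3 members and 786 of all genes (5.28%) had a p below 0.05. The sign was mostly positive: 21 of 23 members had a higher estimate in old mice with a median of 0.47 on the log2 scale, while over all genes 50.7% were higher with a median of 0.0025. The 11 members that did not pass the filter are not in these counts.

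Laptm5, a lysosomal membrane protein of blood-derived cells and microglia, had the smallest p. It lay between 9.89 and 36.1 CPM in old DAT;NuTRAP mice with a median of 16.2 CPM, against 1.26 to 22.9 CPM in young mice with a median of 8.63 CPM. The log2 fold change was 1.18 ± 0.36 (SE, adjusted p = 0.812). Every old library exceeded the young median, though the ranges overlapped. Csf1r lay between 3.50 and 11.8 CPM with a median of 8.72 CPM in old mice, against 1.36 to 8.40 CPM with a median of 4.26 CPM in young mice (log2 fold change 0.89 ± 0.31, adjusted p = 0.884). For Ctss the old libraries spanned 3.97 to 27.3 CPM around a median of 12.0 CPM and the young ones 1.27 to 13.9 CPM around 6.94 CPM (0.69 ± 0.29 on the log2 scale, adjusted p = 0.931). In each case the highest libraries were old and the lowest young, with much overlap between. Lyz2, which encodes a lysozyme of macrophages, reached 6.28 CPM in old and 3.64 CPM in young mice (log2 fold change 1.24 ± 0.63, adjusted p = 0.954), and its estimate was -0.16 in the first batch alone. Cd74, the invariant chain of MHC class II, had 11.7 and 7.31 CPM in 2 old libraries, female replicate 4 and male replicate 4, and at most 2.81 CPM in the other 7, against at most 1.46 CPM in young mice (log2 fold change 1.80 ± 0.92, adjusted p = 0.954). Cx3cr1 had a median of 7.05 CPM in old and 5.60 CPM in young mice (log2 fold change 0.44 ± 0.26, adjusted p = 0.988).

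By role, all 6 lysosomal, Toll-like receptor and antigen members tested had a positive estimate in DAT;NuTRAP, from 0.49 to 1.80 on the log2 scale with a median of 0.99. The 6 homeostatic members spanned -0.09 to 0.74, the 5 ITAM and Fc receptor members -0.28 to 0.72, and the 3 growth factor and phagocytosis receptors 0.20 to 0.89. The summed level of the 34 members was 118, 123, 129, 148 and 155 CPM in the 5 old libraries of the second batch, against 51.6 to 118 CPM in the 6 young ones. In the first batch it was 61.8, 64.8, 68.0 and 125 CPM in old mice, against 43.6 to 61.3 CPM in young mice. Old libraries thus lay above the young range in the first batch and overlapped it at its upper end in the second. Astrocyte markers moved the same way, since 15 of 15 had a higher estimate in old mice with a median of 0.35 on the log2 scale and 0 called, as had 12 of 12 oligodendrocyte markers with a median of 0.27 and 0 called. The part of these other cells in the members' estimates was not tested.

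In GABA neurons 32 members passed the filter and 0 were called with age, against 4 of all 15607 genes called higher (0.0256%) and 0 lower (edgeR). DESeq2 and limma-voom called 0 members as well, and 3 members against 934 of all genes (5.98%) had an unadjusted p below 0.05. Of the 32 members 25 had a higher estimate in old mice with a median of 0.34 on the log2 scale, against 49.5% of all genes. Markers of other cells had the same sign, with 14 of 15 astrocyte markers (median 0.29) and 11 of 12 oligodendrocyte markers (median 0.37) higher and 0 called, and their part in the members' estimates was not tested. Leaving out 1 library gave members' medians between 0.14 (without old female replicate 3) and 0.64 (without young male replicate 2). The median was 0.76 when the 5 high libraries were left out, with 27 of 30 members higher. It was -0.02, with 14 of 32 higher, when the mouse of 24 months and the 2 mice of 7 months were left out. The members summed to 62.3 CPM in the mouse of 24 months and to 24.1 and 29.3 CPM in the 2 of 7 months, among the 4 lowest of the 18 libraries.

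Tyrobp had the smallest p in VGAT;NuTRAP, between 0.334 and 5.09 CPM in old mice with a median of 0.860 CPM, against 0.148 to 1.46 CPM in young mice with a median of 0.475 CPM (log2 fold change 1.38 ± 0.58, adjusted p = 0.823). Cd74 lay between 0.712 and 2.31 CPM in old mice against 0.221 to 2.55 CPM in young mice (0.80 ± 0.36, adjusted p = 0.826). The estimate for Lyz2 was 1.21 ± 0.56 (adjusted p = 0.826), that for Fcer1g 1.31 ± 0.68 (adjusted p = 0.845), that for Itgam, an integrin chain of the complement receptor CR3, 1.07 ± 0.59 (adjusted p = 0.858), and that for the kinase Lyn 0.97 ± 0.77 (adjusted p = 0.937). None of the 6 separated old from young libraries. Of the homeostatic members 3 of 8 had a higher estimate in old mice with a median of -0.05 on the log2 scale, and Irf8 was at -0.22, while all 7 ITAM and Fc receptor members and all 8 lysosomal, Toll-like receptor and antigen members tested were positive, with medians of 0.68 and 0.60.

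**Figure D3:**
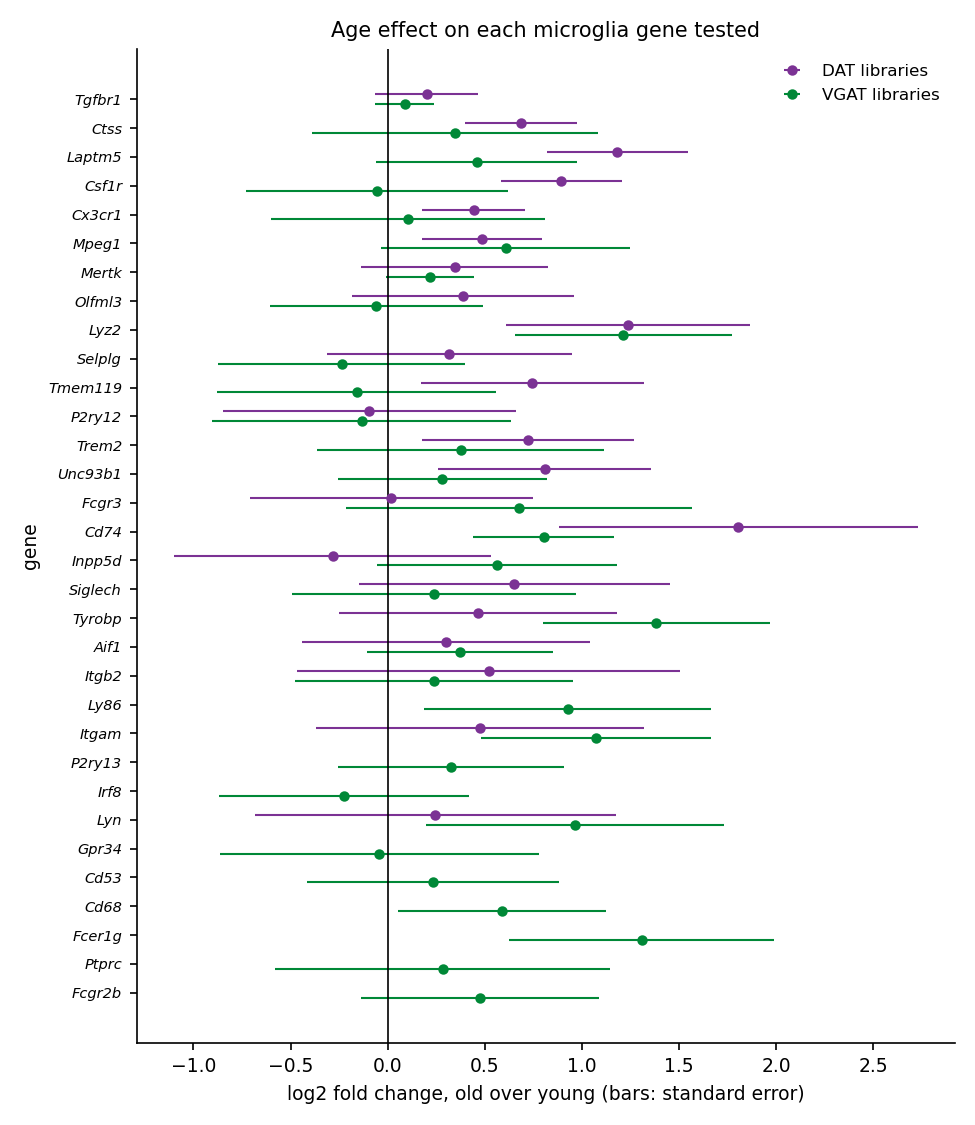
Log2 fold change in old over young mice for each member tested in DAT;NuTRAP (purple) and VGAT;NuTRAP (green), with bars of 1 standard error. Genes are ordered by mean level from top to bottom, and 0 members were called in either cross. Bars are longer in VGAT;NuTRAP for Csf1r, Ctss and Cx3cr1, 3 of the genes that were high in the 5 libraries set apart.

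The difference between the age effects was tested directly. In the joint fit of 37 libraries 30 members passed the filter, and 0 members and 0 of all 15540 genes (0.0%) had an age effect in DAT;NuTRAP that differed from that in VGAT;NuTRAP (edgeR). Unadjusted, 0 members and 582 of all genes had a p below 0.05, and DESeq2 and limma-voom called 0 members. The median difference was 0.36 on the log2 scale, with 21 of 30 members positive, and it was 0.01 with 15 of 29 positive without the 5 high VGAT;NuTRAP libraries. The smallest p belonged to Irf8 (difference 2.31 ± 1.34, adjusted p = 0.998), followed by Csf1r (0.97 ± 0.72), Laptm5 (0.73 ± 0.65), Ly86 (1.32 ± 1.23), Tmem119 (0.92 ± 0.88) and Fcer1g (-1.43 ± 1.37), each with the same adjusted p as Irf8. Of these genes Irf8, Ly86 and Fcer1g had not passed the count filter in DAT;NuTRAP alone. Their differences rest on few counts there, Irf8 being at 0 in 6 second-batch and 1 first-batch DAT;NuTRAP libraries.

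The batches were compared next, first in DAT;NuTRAP. Of the 23 members tested, 4 were called higher in the second batch than in the first, against 2505 of all 14889 genes (16.8%), and 0 were called lower, against 2610 of all genes (17.5%). The count called higher was thus near the background, although 22 of 23 estimates were positive with a median of 0.82 on the log2 scale against 49.6% positive over all genes. Cx3cr1 had the smallest p and rose to between 2.92 and 16.9 CPM in the second batch with a median of 10.8 CPM, against 1.91 to 5.90 CPM in the first with a median of 3.02 CPM (log2 fold change 1.76 ± 0.28, adjusted p = 1.18e-05). All second-batch libraries but 1, young male replicate 5 at 2.92 CPM, exceeded every first-batch library. Ctss had a median of 12.0 CPM in the second batch against 5.01 CPM in the first, with ranges of 1.27 to 27.3 CPM and 2.21 to 7.95 CPM (1.22 ± 0.30, adjusted p = 0.00183). Fcgr3 was at 0 in 2 second-batch libraries and between 2.01 and 4.37 CPM in the other 9, against 0.119 to 0.676 CPM in the first batch (2.71 ± 0.85, adjusted p = 0.0126). Trem2 spanned 0.623 to 10.7 CPM against 0.156 to 2.54 CPM (1.48 ± 0.58, adjusted p = 0.0469). The call for Fcgr3 was lost with limma-voom (1.72, adjusted p = 0.360) and with a replicate block (3.66, adjusted p = 0.335), and that for Ctss with library size as a covariate (0.86, adjusted p = 0.0513). The call for Trem2 was lost with limma-voom (1.23, adjusted p = 0.169), with a replicate block (1.92, adjusted p = 0.321) and without a filter on low counts (1.44, adjusted p = 0.0781). It was also lost when any 1 of 11 of the 19 libraries was left out, with adjusted p-values between 0.024 and 0.139 over the 19 fits.

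The second-batch DAT;NuTRAP libraries also had more members at 0, as they had fewer genes of any kind. Over all genes 14323 to 18170 were detected in a second-batch library, against 19085 to 21051 in a first-batch library. The loss was thus a trait of these libraries and not particular to the members. Between 1 and 19 of the 34 members were at 0 counts in a second-batch library with a median of 7, against 0 to 6 with a median of 2 in a first-batch library. Young female replicate 5 had the 19, and 14798 genes detected. The number at 0 did not follow depth in every library. Young female replicate 4, of the second batch, had 29418958 counts, with 12 members at 0 and 12 below 10 counts. Old male replicate 2, of the first, had 16771686 counts, with 0 members at 0 and 14 below 10 counts. The reason was not tested. Gpr34, a receptor for lysophosphatidylserine, was at 0 in 7 of 11 second-batch libraries and 3 of 8 first-batch libraries, and Fcgr2b, the inhibitory Fc receptor, in 8 and 1. Complement genes followed Cx3cr1: C1qb was higher in the second batch by 1.68 ± 0.31 on the log2 scale (adjusted p = 7.88e-05), C1qa by 1.67 ± 0.34 (adjusted p = 2.70e-04) and C1qc by 1.94 ± 0.41 (adjusted p = 4.12e-04). Among other cells, 11 of 15 astrocyte markers and 10 of 12 oligodendrocyte markers were called higher in the second batch with 0 lower, and their medians were 0.58 and 1.34 on the log2 scale. Their part in the members' batch difference was not tested.

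In VGAT;NuTRAP 0 of 32 members were called higher in the second batch, against 2348 of all 15607 genes (15.0%), and 1 was called lower, against 2166 genes (13.9%). It was Cd74, between 0.221 and 1.59 CPM in the second batch with a median of 0.779 CPM, against 0.425 to 2.55 CPM in the first with a median of 1.38 CPM (log2 fold change -1.15 ± 0.37, adjusted p = 0.0208). The ranges overlapped. The call was lost without young female replicate 2 (-0.84, adjusted p = 0.104), without old male replicate 1 (-1.12, adjusted p = 0.0683) and without the 5 high libraries (-1.23, adjusted p = 0.0615). The estimates of 29 members were positive with a median of 0.66, and the median was 0.15 with 19 of 30 positive without the 5 libraries, 4 of which were of the second batch. P2ry13 gave the next smallest p (1.63 ± 0.68, adjusted p = 0.0763) and was called without 1 young male, replicate 1, 3 or 4.

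**Figure D4:**
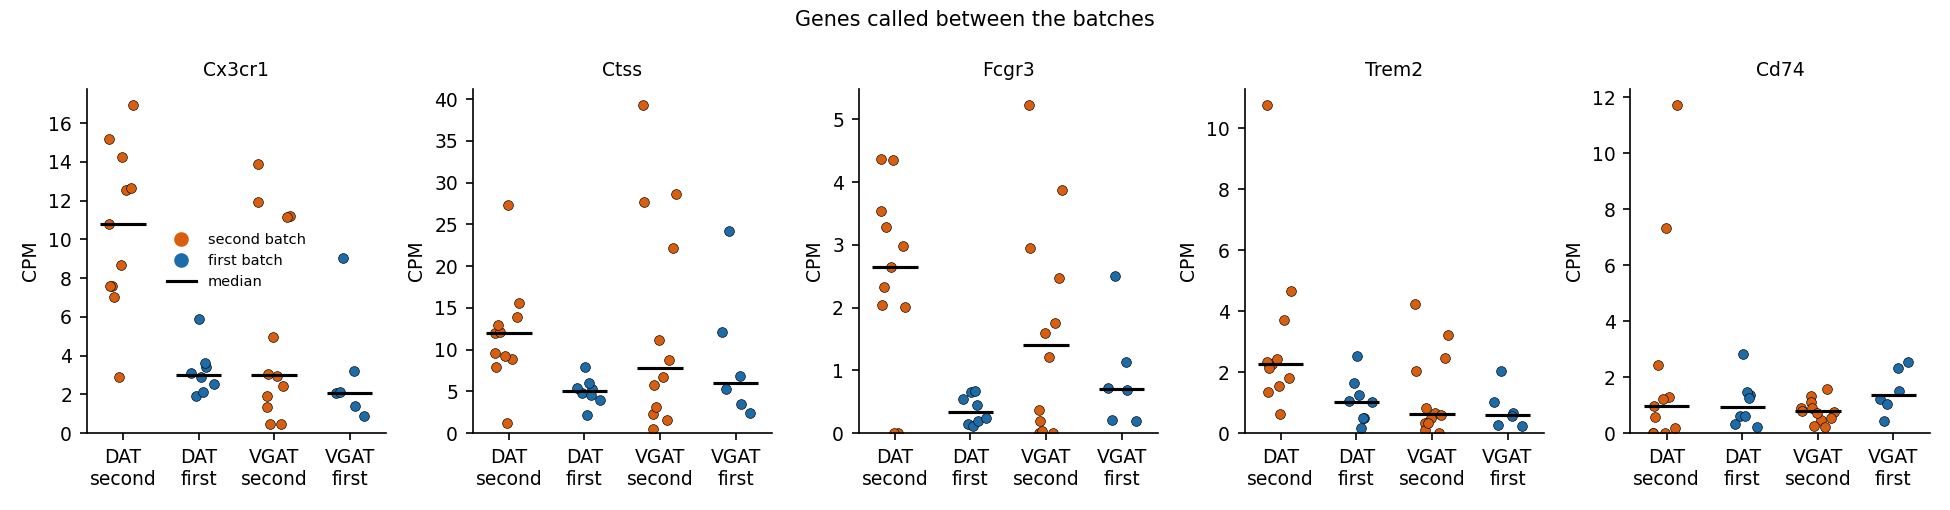
CPM per library of the 4 members called between batches in DAT;NuTRAP (Cx3cr1, Ctss, Fcgr3 and Trem2) and of Cd74, called in VGAT;NuTRAP. Points are libraries of the second (orange) and first (blue) batch and bars are medians. For Cx3cr1 the DAT;NuTRAP medians are 10.8 CPM in the second and 3.02 CPM in the first batch.

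Dopamine and GABA neuron pulldowns were then compared with each other. Of 30 members tested over all 37 libraries, 2 were called higher in DAT;NuTRAP than in VGAT;NuTRAP, against 5023 of all 15540 genes (32.3%), and 0 were called lower, against 4931 genes (31.7%). The members' estimates were centred near 0, with 14 of 30 positive and a median of -0.02 on the log2 scale. Laptm5 lay between 1.26 and 36.1 CPM in DAT;NuTRAP libraries with a median of 11.9 CPM, against 0.959 to 12.9 CPM in VGAT;NuTRAP libraries with a median of 3.46 CPM (log2 fold change 1.40 ± 0.31, adjusted p = 1.88e-04). Without the 5 high VGAT;NuTRAP libraries the estimate for Laptm5 was 2.08 ± 0.29. These 5 were its highest VGAT;NuTRAP libraries, so a rise without them was fixed in advance and is no test. Mertk lay between 0 and 9.31 CPM in DAT;NuTRAP with a median of 3.77 CPM, against 1.33 to 3.78 CPM in VGAT;NuTRAP with a median of 2.01 CPM (0.98 ± 0.28, adjusted p = 0.00268). Both genes overlapped between the crosses. Gpr34 had the next smallest p (-1.55 ± 0.74, adjusted p = 0.0651), and it was called lower in DAT;NuTRAP without DAT;NuTRAP old female replicate 4, without DAT;NuTRAP young male replicate 3 and without VGAT;NuTRAP old female replicate 2. It had not passed the count filter in DAT;NuTRAP alone, where it was at 0 in 7 second-batch and 3 first-batch libraries. Its highest VGAT;NuTRAP libraries were the 5 picked by the members' own summed level. Its values are thus a description and no support for a difference.

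This comparison depended on the 5 VGAT;NuTRAP libraries set apart. Without them 8 of 29 members were called higher in DAT;NuTRAP, a share near the 28.6% of all 15524 genes. Of the 29 estimates 27 were positive, with a median of 0.77. Besides Laptm5 and Mertk the 8 were Cx3cr1 (1.63 ± 0.30), Trem2 (2.01 ± 0.49), Unc93b1, which carries nucleic acid-sensing Toll-like receptors to endosomes (1.11 ± 0.39), Mpeg1 (0.71 ± 0.26), Tgfbr1 (0.47 ± 0.18) and Tmem119 (1.13 ± 0.46). The 5 libraries were picked by the members' own summed level. Higher estimates without them were thus largely fixed in advance, and these values are a description. With the 5 libraries kept, leaving out single libraries gave between 2 and 4 members called higher, and the 4 came without VGAT;NuTRAP young male replicate 1. Laptm5 missed the threshold in the first batch alone (1.10, adjusted p = 0.182), and Mertk missed it in old libraries alone (1.14, adjusted p = 0.0577), with limma-voom (0.82, adjusted p = 0.0531) and with a replicate block (0.52, adjusted p = 0.256). Markers of other glia and of vessels were higher in DAT;NuTRAP: 14 of 15 astrocyte, 11 of 12 oligodendrocyte and 14 of 14 endothelial and mural markers were called higher, and 1, 1 and 0 lower, with medians of 1.49, 1.43 and 1.72 on the log2 scale. Border macrophage markers summed to between 6.27 and 19.1 CPM in DAT;NuTRAP libraries against 0.479 to 7.09 CPM in VGAT;NuTRAP libraries, and of the 2 tested 1 was called higher, the mannose receptor gene Mrc1 (1.85 ± 0.27, adjusted p = 1.65e-07). Of 3 blood markers tested 2 were called higher, with a median of 1.49. Mertk is also an astrocyte gene, and whether these cells contribute to the 2 calls was not tested.

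**Figure D5:**
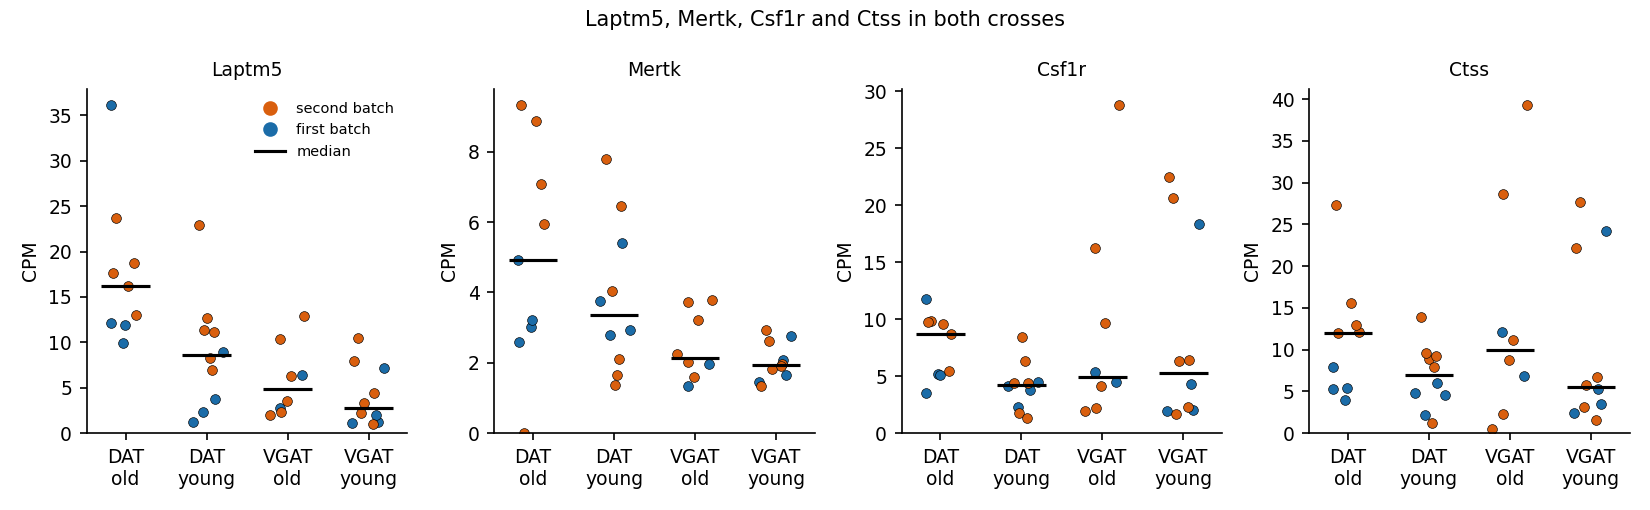
CPM per library of Laptm5 and Mertk, called higher in DAT;NuTRAP, and of Csf1r and Ctss, which were not called, by cross and age. Points are libraries coloured by batch and bars are medians. Csf1r reaches 28.8 CPM and Ctss 39.3 CPM in VGAT;NuTRAP, both in old female replicate 3.

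Neurons also make signals that microglia receive, several of them through members, and 12 of 13 ligand genes passed the filter in the joint fit. Cx3cl1, the fractalkine that binds CX3CR1, was abundant in both crosses, between 221 and 356 CPM in DAT;NuTRAP and between 295 and 376 CPM in VGAT;NuTRAP, and was lower in DAT;NuTRAP by a log2 fold change of -0.30 ± 0.04 (adjusted p = 1.03e-07). Gas6, which bridges dying cells to MERTK, lay between 78.6 and 113 CPM in DAT;NuTRAP against 159 to 234 CPM in VGAT;NuTRAP without overlap (-1.02 ± 0.06, adjusted p = 4.72e-19). Pros1, the second bridging ligand, went the other way, between 3.01 and 13.5 CPM against 1.56 to 4.52 CPM (1.37 ± 0.17, adjusted p = 4.47e-09). Of the ligands of CSF1R, Csf1 was higher in DAT;NuTRAP (0.43 ± 0.13, adjusted p = 0.00309), with 7.52 to 27.9 CPM against 7.06 to 15.4 CPM, and Il34 had 19.5 to 37.9 CPM against 19.4 to 30.3 CPM (0.01 ± 0.07, adjusted p = 0.896). In all, 5 of 12 ligand genes were called higher and 3 lower in DAT;NuTRAP, against 32.3% and 31.7% of all genes. Those called higher include Cd200 (0.70 ± 0.05) and Cd47 (0.41 ± 0.05), whose receptors are not among the members. With age 0 ligand genes were called in either cross (edgeR), the estimates of Cx3cl1 being 0.10 ± 0.07 in DAT;NuTRAP and -0.08 ± 0.04 in VGAT;NuTRAP.

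Further microglia genes were looked at from a list of 32. In old against young DAT;NuTRAP mice 19 of 22 tested had a positive estimate with a median of 0.29 on the log2 scale and 0 called. The complement genes were C1qb (1.18 ± 0.29, adjusted p = 0.380), C1qa (1.04 ± 0.32, adjusted p = 0.807) and C1qc (1.01 ± 0.38, adjusted p = 0.931). In VGAT;NuTRAP 14 of 23 were positive with a median of 0.08 and 0 called. Genes reported to rise in microglia around damage, many of which neurons also express, had medians of 0.05 over 12 genes in DAT;NuTRAP and 0.23 over 13 genes in VGAT;NuTRAP, again with 0 called.

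Sexes were compared for their age effects. In DAT;NuTRAP 0 of 23 members and 0 of all 14889 genes (0.0%) had an age effect in males that differed from that in females (edgeR), with 561 of all genes and 0 members at an unadjusted p below 0.05 and 0 members called by DESeq2 or limma-voom. The median difference, male minus female, was -0.74 on the log2 scale with 5 of 23 positive, and the members' median age effect was 0.30 in males and 0.78 in females. Leaving out 1 library moved the male median between 0.10 (without old male replicate 4) and 0.36, and the female median between 0.71 and 1.09. Members summed to 123 to 155 CPM in the 4 old females, against 43.6 to 96.6 CPM in the 5 young females, without overlap. They summed to 61.8 to 148 CPM in the 5 old males, against 54.5 to 118 CPM in the 5 young males, with overlap. These ranges mix the batches. In the first batch old males were at 61.8, 64.8 and 68.0 CPM, against 54.5 and 61.3 CPM in young males, without overlap. In the second batch they were at 118 and 148 CPM, against 76.4, 84.7 and 118 CPM. Old female replicate 1, of the first batch, was at 125 CPM, and the other old females were of the second batch. Laptm5 had the smallest p for the difference (-1.26 ± 0.66), followed by Tmem119 (-1.87 ± 1.21), and the adjusted p was 1.0 for both.

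In VGAT;NuTRAP 0 of 32 members and 0 of all 15607 genes (0.0%) were called for the difference between the sexes (edgeR), with 1 member and 798 genes at an unadjusted p below 0.05 and 0 members called by DESeq2 or limma-voom. The members' median age effect was -0.16 in males and 0.68 in females, a median difference of -1.17 (0.31 with limma-voom). Leaving out 1 library moved the male median between -0.51 and 0.32, positive without young male replicate 1 or young male replicate 2, the female median between 0.29 (without old female replicate 3) and 1.23 (without young female replicate 5), and the difference between -1.73 and -0.26 (without young male replicate 1). The direction turned round without the 5 high libraries, with medians of 1.96 in males and -0.17 in females. Because the 5 were picked by the members' own summed level, this turn is a description and no test. Of the 5, 2 were old females, 2 young males and 1 a young female. Members summed to 60.8 to 86.2 CPM in the 3 old males, against 24.1 to 171 CPM in the 4 young males, and to 23.9 to 218 CPM in the 5 old females, against 27.4 to 137 CPM in the 6 young females. Lyz2 had the smallest p for the difference (-2.48 ± 1.02, adjusted p = 0.952), followed by Cd68, a lysosomal glycoprotein of macrophages (-2.11 ± 1.10, adjusted p = 0.952).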

How the data were processed

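The authors trimmed reads, aligned them to mm39 with STAR 2.7.10b and counted reads per gene with featureCounts (version not given in the sources used here). The deposited tables hold raw counts per gene, whole numbers without scaling, and precede the authors' removal of low counts and of astrocyte and microglia genes and their batch correction. Columns were matched to libraries by their titles, 0 columns were left out, and input fractions were not analysed here.

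Both tables were joined by gene identifier. R 4.3.3 and edgeR 4.0.16 served for all comparisons (library totals corrected by TMM, filterByExpr with a minimum count of 10, robust quasi-likelihood fits, Benjamini-Hochberg adjustment over all genes tested; called at an adjusted p below 0.05); standard errors are the log2 fold change divided by the square root of F. Age and batch were fitted within each cross, cell type with batch and age, and interactions with their main effects. Each mouse is 1 library. Alternatives used limma 3.58.1, DESeq2 1.42.0, other filters, covariates and libraries. Scripts were tested on simulated data. Of 70 pairs of libraries within a condition none differed by less than sampling noise (lowest chi-square per degree of freedom 5.46).

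By the rule for named genes any member could be named with its levels; fold changes could be given for members past the threshold or else for those with the smallest p (6, of which 2 are printed for the sexes), and for up to 4 genes of every other list, the label genes, the ligands and C1q, of which a choice is printed. Exonic lengths, positions and promoters came from GENCODE vM39 on GRCm39, the build of the files. The exonic length of a gene is the number of bases in any exon of any of its annotated transcripts. Members, lists and tests were chosen with earlier results of these data known. Some items are not reported here.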

Additional observations from a re-analysis of the deposited data

Results flagged for a closer look

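In each of 140 sets of values (34 members and their summed level, in old and young libraries of each cross) the highest and the lowest library were set against the rest, and 20 stood apart by the gap to their neighbour. For independent sets of normally distributed values about 1 in 20 would do so, which is 7 here. These sets share libraries and many are skewed or hold zeros, so 20 against 7 does not show an excess.

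In old DAT;NuTRAP libraries, female replicate 2 was highest for P2ry12 at 6.74 CPM and for Trem2 at 10.7 CPM, and it was lowest for Tgfbr1 at 2.79 CPM. It was the shallowest of all libraries, with 13841253 counts, and had 12 members at 0. Old male replicate 4 was highest for P2ry13 at 3.3 CPM and for Ctss at 27.3 CPM, and old female replicate 4 for Itgb2 at 3.69 CPM and Gpr34 at 2.97 CPM. Old female replicate 1 had the highest Fcgr2b, 2.32 CPM.

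Among young DAT;NuTRAP libraries, male replicate 3 stood apart with Laptm5 at 22.9 CPM and Ly86 at 1.19 CPM, and male replicate 4 with P2ry13 at 2.49 CPM and Cd68 at 1.67 CPM. Female replicate 5 had Fcgr2b at 1.71 CPM, female replicate 1 had Ptprc at 0.603 CPM, and female replicate 3 had Cd14 at 2.22 CPM.

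Among old VGAT;NuTRAP libraries, female replicate 3, which had the highest summed level, stood apart for Irf8 at 2.3 CPM, Cd14 at 1.61 CPM and Inpp5d at 4.34 CPM. Young VGAT;NuTRAP male replicate 2 stood apart for Itgb2 at 3.27 CPM and Spi1 at 1.46 CPM. The summed level itself stood apart in no set, since more than 1 library was high in old and in young VGAT;NuTRAP mice.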

How the results depend on the processing

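Over 65 results and 215 fits, 1997 of 2058 values under an alternative were marked as the same. A fold change had to keep its direction and its side of the threshold. A count of called members could change by a limited factor, and many such counts stayed at 0. A median had to move by less than the spread between libraries, 1.16 on the log2 scale for age in VGAT;NuTRAP, so it could change sign. The fits that leave out the 5 high VGAT;NuTRAP libraries were added after seeing the data. These libraries were picked by the members' own summed level, so changes in the members without them are a description and no test. Members called higher between batches in DAT;NuTRAP were 4, but 2 with at least 10 counts in every library, 2 with limma-voom and 2 with a replicate block (3 to 6 leaving out 1 library); with library size as a covariate 1 was called lower. In VGAT;NuTRAP members called higher between batches were 0, but 1 with DESeq2, 2 without mice of other ages and 0 to 2 leaving out 1 library; members called lower were 1, but 0 with at least 10 counts in every library, with library size as a covariate, with a replicate block and without the 5 libraries, and 0 to 1 leaving out 1 library. Between cell types, members called higher were 2, but 1 with at least 10 counts in every library, 1 in old libraries alone, 8 without the 5 libraries and 2 to 4 leaving out 1 library; members called lower were 0, but 1 with limma-voom, 1 with a replicate block and 0 to 1 leaving out 1 library. For age by sex in VGAT;NuTRAP 5 members were called lower without a filter on low counts, and the median was 0.31 with limma-voom and 1.96 without the 5 libraries. Old against young DAT;NuTRAP females gave 1 member called higher without a filter and 1 with DESeq2. In VGAT;NuTRAP males 2 were called lower without a filter, and the median was 1.96 without the 5 libraries; in females 4 were called higher without a filter. Lyz2 with age in DAT;NuTRAP reversed to -0.16 in the first batch alone. The cause was not tested for any of these.

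Replicate numbers did not pair the libraries: of 17 same-numbered pairs of old and young libraries 3 correlated above 0.1 (-0.05 to 0.34). With the replicate block the median age effect was 0.43 in DAT;NuTRAP and 0.09 in VGAT;NuTRAP, with 0 members called. Most members had few reads, so a difference within their counting error was not detectable, and 11 members in DAT;NuTRAP and 2 in VGAT;NuTRAP were not tested for age.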
